A study of Mus musculus with 4 samples.

Results

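The calcitonin receptor family was followed in satellite cells, the stem cells that reside in mouse skeletal muscle, from control mice and from mice with a conditional knockout of the calcitonin receptor gene. The 6 genes were chosen by name: the receptor Calcr, its close relative Calcrl, the receptor activity modifying proteins Ramp1, Ramp2 and Ramp3, and the receptor component protein Crcp. They are 6 of 18193 genes named on the array. Together they had 10 probe sets of their own, and 2 further probe sets, annotated to both Ramp2 and Vps25, were counted for neither gene.

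Both groups of mice were 10 weeks old, carried Cre at the Pax7 locus (Pax7-CreERT2, active only with tamoxifen) and a Rosa-YFP reporter, and had received tamoxifen. Pax7 marks satellite cells, so recombined satellite cells carry YFP, and cells positive for YFP were sorted straight from muscle 2 weeks after tamoxifen. Control mice were Calcr +/+, and conditional knockout (cKO) mice were Calcr flox/flox. There were 2 biological replicates of each genotype, and 4 arrays in all. The number of mice behind a sample was not given in the sources used here, and p-values measure only the spread between these samples.

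Calcr encodes a class B G protein-coupled receptor that binds calcitonin and signals largely through cAMP, and in muscle it is known as a marker of quiescent satellite cells. Calcrl encodes a related receptor that needs a RAMP partner to reach the cell surface: with RAMP1 it forms the receptor for calcitonin gene-related peptide, and with RAMP2 or RAMP3 receptors for adrenomedullin. The same RAMPs turn the calcitonin receptor into receptors for amylin. Crcp helps couple the peptide-bound receptor to signalling, and the same protein is a subunit of RNA polymerase III.

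Satellite cell markers were well measured on every array, and markers of vessels differed widely between the arrays. All 11 of 11 satellite cell markers passed the filter on low signals, a mean log2(signal + 1) at or above the median probe set (a signal of 63.9). Array medians ran from 57.8 to 70.4, and no array shared a value with another. Endothelial markers summed to 14548 and 1641 on control replicates 1 and 2 and to 13533 and 1901 on cKO replicates 1 and 2, so they followed the replicate number in both genotypes. None of the 19 was at 0. Of the 18 that passed the filter, 17 were brighter by at least 2-fold on replicate 1 in either genotype. The 12 pericyte and smooth muscle markers summed to 15316 and 8315 in control and to 17119 and 6591 in cKO cells. The 14 leukocyte markers, of which only 6 passed the filter, summed to 1549 and 2596 in control and to 1602 and 601 in cKO cells. Of those 6, 5 were lower in cKO, with a median log2 difference of -1.43, where 57.3% of all genes tested were lower. The groups did not overlap in 2 of 6, or 33.3%, against 20.6% of all genes tested. On the log2 scale, Cd74, H2-Aa, Lyz2 and Cd68 were higher in cKO between the arrays numbered 1 (0.31, 0.38, 0.30 and 0.27). Fcer1g and Laptm5 were lower there (-0.26 and -1.84). Between the arrays numbered 2, only Cd68 was higher (0.53), and Cd74, H2-Aa and Lyz2 differed by -3.16, -3.53 and -3.17. Laptm5, a lysosomal membrane protein gene of blood cells, singled out after its values were seen, read on the 1 of its 5 probe sets that passed 313 and 328 in control and 86.6 and 23.7 in cKO cells. Its log2 difference was -2.79 (adjusted limma p 0.99999). Since Laptm5 was picked by its values and its control signals carried it over the filter, no unadjusted p is given. The part of leukocyte RNA in the differences described here was not tested. Over the 4 arrays, fibro-adipogenic markers summed to between 12395 and 15064, muscle fibre markers to between 2814 and 5383, Schwann cell markers to between 209 and 1532 and lymphatic markers to between 6603 and 7470. Most of the lymphatic sum was Pdpn (4894 to 5155) and Prox1 (1443 to 2500). Flt4, of the same list, followed the replicate number, with 162 and 29.3 in control and 206 and 19.3 in cKO cells. So did the Schwann cell marker Mbp, with 1249 and 96.2 in control and 1194 and 55.4 in cKO cells.

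Calcr, the targeted receptor, had a lower signal in cKO cells on both arrays. Its only probe set, 1418688_at, read 1268 and 1424 on control replicates 1 and 2, and 568 and 684 on cKO replicates 1 and 2. Both cKO arrays lay well below both control arrays, and within each group the arrays were 1.12-fold and 1.20-fold apart. The means were 1346 ± 110 (SD, n = 2) in control and 626 ± 82.0 (SD, n = 2) in cKO cells, so that 46.5% of the control signal remained. Each cKO array retained a like share, 42.2% and 50.8% of the control mean. Whether the probe set reads inside the floxed part of the gene was not given in the sources used here. Its direction is that of the labels, but the remaining signal does not measure how many cells recombined, and a probe set outside the deleted part would not check the deletion. In sorted cells measured as a pool, fewer cells with a transcript and less transcript per cell cannot be told apart.

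**Figure D1:**
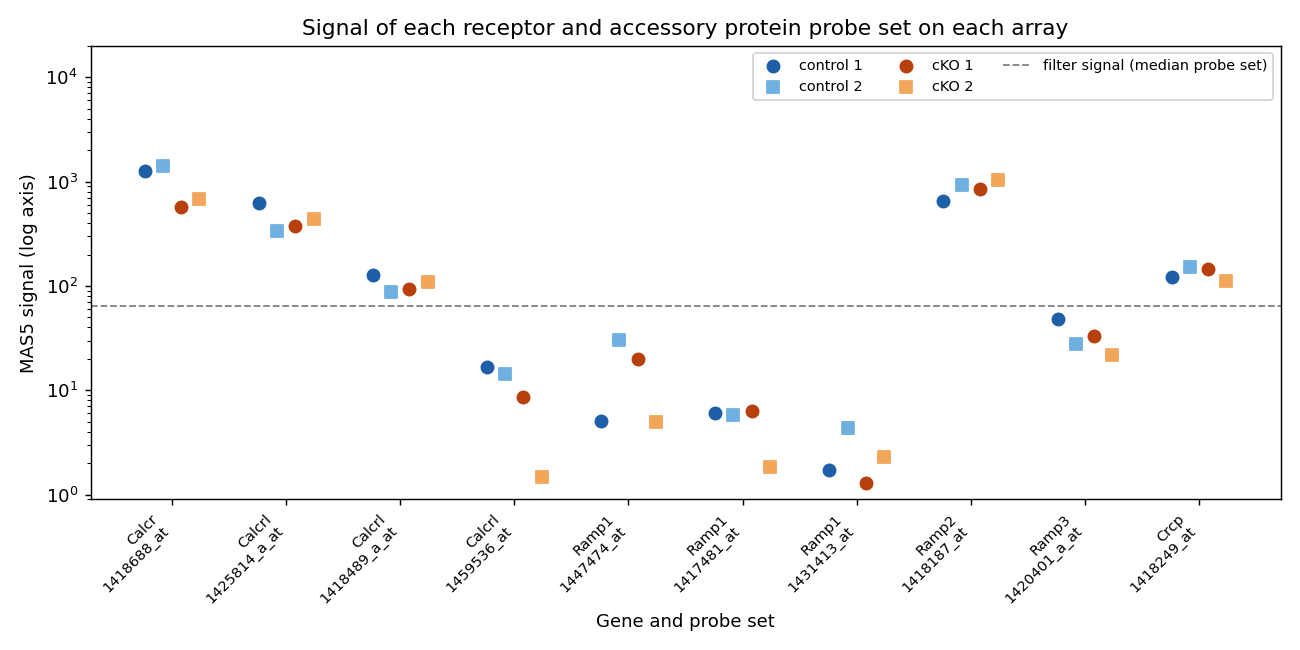
MAS5 signal (vertical log axis) of the 10 probe sets of the 6 genes on each of the 4 arrays; blue points are control and orange points cKO, circles replicate 1 and squares replicate 2, and the dashed line is the filter signal of 63.9. The groups of Calcr are apart, from 568 to 684 in cKO against 1268 to 1424 in control, while those of Calcrl's 2 bright probe sets, Ramp2 and Crcp mingle. Heights of different probe sets are not comparable, since each binds with its own strength.

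The difference in Calcr was -1.11 on the log2 scale with an SE of 0.25 and a 95% interval of -1.70 to -0.51 (limma), a 2.15-fold difference. Its unadjusted limma p was 0.00292, and 6 of the 22519 probe sets tested had a smaller one. Adjusted over all of them, the limma p of Calcr was 0.99999, and 0 probe sets (0%) were called. At an unadjusted limma p under 0.05 there were 163 probe sets, or 0.724%. With 2 arrays a group, an exact permutation test (two-sided) cannot give a p below 0.333. Arrays without overlap and lower in cKO occurred in 13.5% of probe sets, and at least 2-fold as well in 0.426%; Calcr was among the latter, and 55 probe sets without overlap had a larger difference downward. Between the arrays numbered 1, Calcr differed by -1.16, and between those numbered 2 by -1.06.

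Calcrl, the related receptor, was measured by 2 probe sets that passed the filter, and neither separated the groups. Probe set 1425814_a_at read 625 and 336 on control replicates 1 and 2, and 379 and 434 on the cKO arrays in the same order. The highest and the lowest of the 4 values were thus both control arrays, and the cKO arrays lay between them. Its means were 481 ± 204 (SD, n = 2) and 406 ± 39.5 (SD, n = 2), a log2 difference of -0.18 with a 95% limma interval of -1.06 to 0.71 and an unadjusted limma p of 0.652. Probe set 1418489_a_at was dimmer and kept the same order of arrays, with 127 and 88.4 in control and 93.0 and 109 in cKO cells. Its log2 difference was -0.071 (95% limma interval -0.997 to 0.86). Both intervals include differences of more than 1.5-fold either way, so the arrays do not show that Calcrl is alike in the groups. Both signs turned without control replicate 1, to 0.27 and 0.19. That of the dimmer probe set also turned without cKO replicate 1 (0.045) and with arrays centred on their median (0.022). The third Calcrl probe set, 1459536_at, read 16.8 and 14.2 in control and 8.70 and 1.48 in cKO cells; all 4 values lay below the filter signal, and no fold is given.

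Ramp2, the partner that makes Calcrl an adrenomedullin receptor, was the only one of the 3 RAMP genes to pass the filter, and its groups overlapped. Probe set 1418187_at read 653 and 926 on control replicates 1 and 2, and 855 and 1044 on cKO replicates 1 and 2. In each genotype replicate 2 was the higher array, and cKO replicate 1 lay between the controls. The means were 789 ± 193 (SD, n = 2) and 950 ± 134 (SD, n = 2), with a log2 difference of 0.28, a 95% limma interval of -0.39 to 0.95 and an unadjusted limma p of 0.359. The probe sets shared by Ramp2 and Vps25 gave another picture: 1428621_a_at gave 236 and 408 for the controls and 266 and 250 for cKO, and 1421051_s_at gave 133 and 241 for the controls and 181 and 129 for cKO. Their log2 differences were -0.27 and -0.23, opposite in sign to that of Ramp2's own probe set, and overlapped likewise.

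Calcrl and Ramp2 are both known for strong expression in endothelium, and their signals were set beside the endothelial markers for that reason. Cdh5, the endothelial cadherin, had signals of 1044 and 1060 on replicate 1 of control and cKO, but 79.7 and 110 on replicate 2. Pecam1, Kdr and Flt1, an adhesion molecule and the main VEGF receptors of endothelium, differed the same way, with 778 against 77.5 for Pecam1 in control cells. Over the 18 markers the median ratio of replicate 1 to replicate 2 was 10.4 in control and 10.5 in cKO cells, with ranges of 2.04 to 23.7 and 1.31 to 18.3. For Ramp2 that ratio was 0.706 in control and 0.819 in cKO cells, so Ramp2 was lower on the arrays on which endothelial markers were higher. For Calcrl's brighter probe set it was 1.86 in control and 0.871 in cKO cells, and for the other 1.44 and 0.850. All 3 probe sets thus lay below the range of the endothelial markers in both genotypes, and the part of endothelial RNA in their signals was not tested further.

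**Figure D2:**
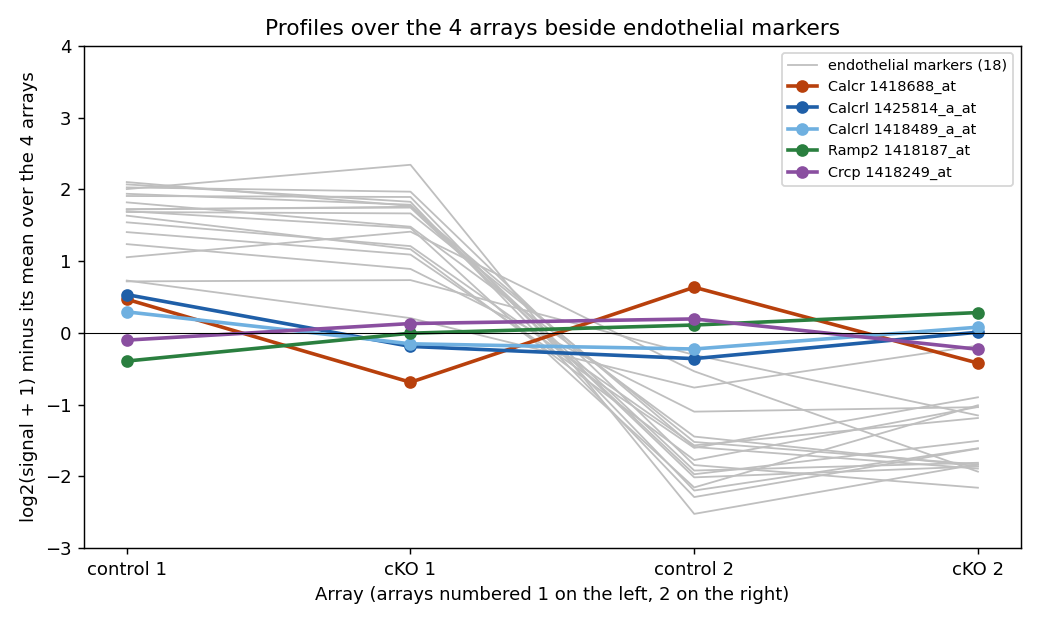
Deviation of log2(signal + 1) from its mean over the 4 arrays (vertical axis) for the 18 endothelial markers that passed the filter (grey lines) and the 5 probe sets of Calcr, Calcrl, Ramp2 and Crcp (coloured lines), with the arrays numbered 1 on the left and those numbered 2 on the right. The grey lines drop from the left pair to the right pair, by a median of 10.4-fold in control and 10.5-fold in cKO cells. No coloured line drops in both genotypes: Calcrl's 2 lines fall 1.86-fold and 1.44-fold in control cells only, and Crcp falls 1.28-fold in cKO cells only.

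Ramp1 and Ramp3 did not pass the filter on any probe set. Ramp1, the partner for the calcitonin gene-related peptide receptor, had 3 probe sets, of which 1447474_at was the brightest with 5.07 and 30.01 in control and 20.0 and 4.95 in cKO cells. Its other 2 probe sets ran from 1.28 to 6.39 over the 4 arrays. Ramp3, which partners both receptors, read 48.5 and 27.8 in control and 33.1 and 21.8 in cKO cells on probe set 1420401_a_at. All of these values were below 63.9 and overlapped between the groups. Detection calls were not used here, so whether these transcripts were present cannot be stated.

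Crcp had the narrowest range of the 5 probe sets of these genes that passed the filter, with 1.34-fold between its highest and lowest array. Probe set 1418249_at read 123 and 151 in control and 145 and 113 in cKO cells, and the cKO arrays included the lowest value of the 4. The means were 137 ± 19.9 (SD, n = 2) and 129 ± 22.6 (SD, n = 2), a log2 difference of -0.096 with a 95% limma interval of -0.96 to 0.77 (unadjusted limma p 0.803). The sign was turned by leaving out control replicate 2 (0.052) or cKO replicate 2 (0.083).

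**Figure D3:**
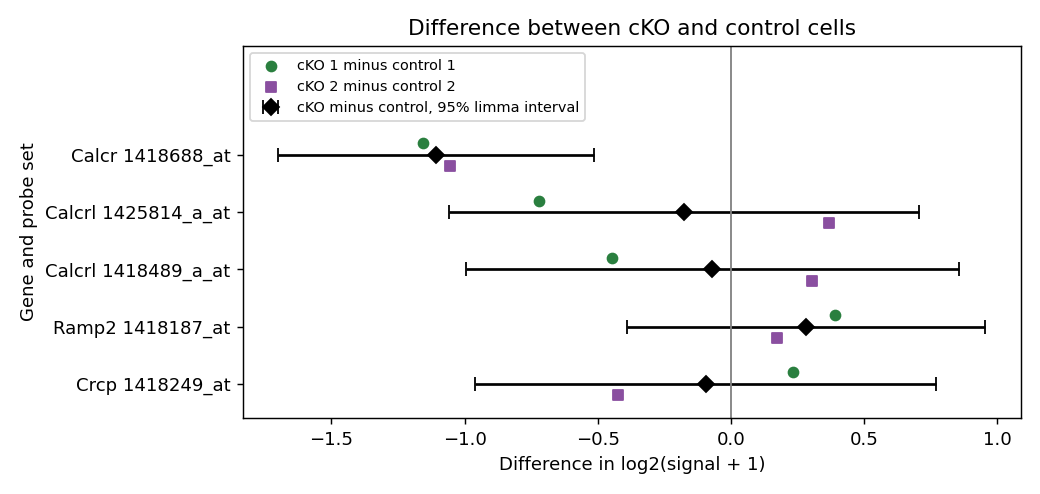
Difference in log2(signal + 1) between cKO and control cells (horizontal axis) for the 5 probe sets that passed the filter, with 95% limma intervals (black diamonds and bars), and the difference between the arrays numbered 1 (green circles) and 2 (purple squares). The interval of Calcr, from -1.70 to -0.51, leaves out 0, and those of Calcrl, Ramp2 and Crcp include it; Calcrl and Crcp have opposite signs in the 2 pairs of arrays.

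Of the 5 probe sets that passed the filter, covering 4 of the 6 genes, 4 were lower in cKO and 1 higher. Calcrl's 2 probe sets were among the 4, and 57.3% of all genes tested were lower. Of the 5, 0 had an adjusted limma p under 0.05. Only Calcr had groups that did not overlap, 1 of 5, where 21.4% of all probe sets tested did so in either direction, and only Calcr had an unadjusted limma p under 0.05. Of the 5 that did not pass, only Calcrl's 1459536_at had groups that did not overlap. The share without overlap among all probe sets that missed the filter is not given here. Under the other ways of processing the arrays the Calcr difference stayed between -1.11 and -1.01, and with any 1 array left out between -1.24 and -0.97. Ramp2 remained above 0 in the same settings, between 0.030 and 0.53 with an array left out.

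**Figure D4:**
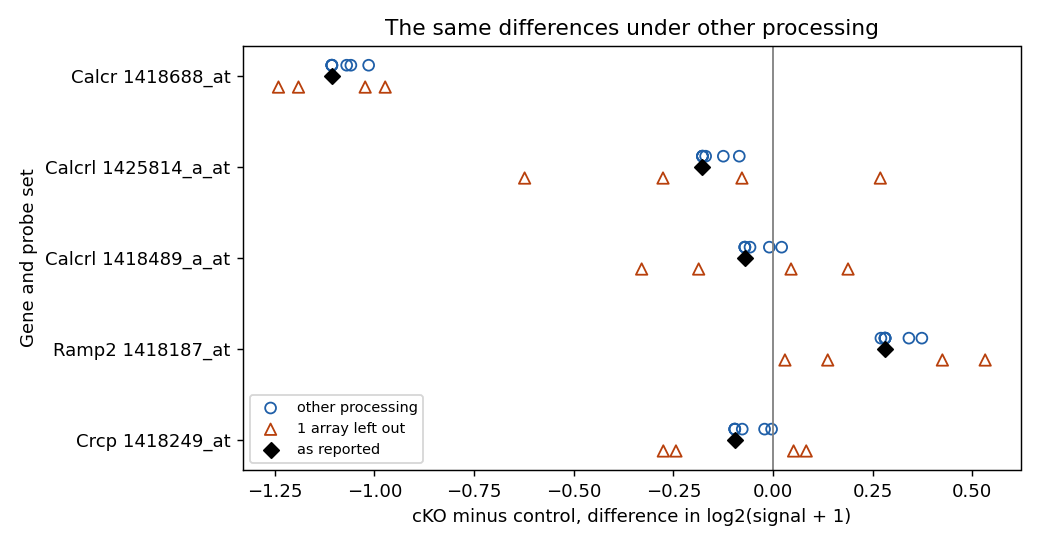
The cKO minus control difference in log2(signal + 1) (horizontal axis) of the same 5 probe sets as reported (black diamonds), under other processing (blue circles) and with 1 array left out (orange triangles). Calcr lies between -1.24 and -0.97 throughout, whereas the points of Calcrl and Crcp fall on both sides of 0.

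Ligands of these receptors were partly measured. The 4 that passed the filter overlapped between the groups, where only 20.6% of all genes tested did not. Of 8 ligand genes fixed for the description, 7 had a probe set and 4 passed the filter. Of these, 3 were higher and 1 lower in cKO, where 57.3% of all genes tested were lower. Their median log2 difference was 0.15, against -0.043 over 10140 genes tested. Adm, which encodes adrenomedullin, read 2202 and 1846 in control and 2327 and 1520 in cKO cells. The collagen V chains, which are known as surrogate ligands of the calcitonin receptor in satellite cells, were bright: Col5a1 read 1593 and 2785 in control and 2261 and 2322 in cKO cells. Col5a2 differed by 0.19 and Col5a3 by 0.18 on the log2 scale, with overlap in both. Adm and Col5a3 each had 2 kept probe sets, of which 1 was lower in cKO, and the brighter is given. Control replicate 1 was the lowest array for all 3 chains. The peptide genes Calcb, Iapp and Adm2 stayed below the filter signal on every array. Calcb was the only one without overlap, at 7.57 and 7.67 against 6.55 and 3.67. No share without overlap among such dim probe sets is given.

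Genes that process or break down these peptides overlapped as well, where only 20.6% of all genes tested did not. Of 7 such genes, 6 had a probe set and 4 passed, 2 higher and 2 lower, with a median log2 difference of -0.13. Of all genes tested, 57.3% were lower. Pam, the enzyme that amidates calcitonin family peptides, read 1322 and 1238 against 1265 and 1308. Ece1 and Ide, peptide-degrading proteases, differed by -0.30 and -0.27 on the log2 scale. Cpe, a carboxypeptidase of prohormone processing, had signals of 417 and 431 on the arrays numbered 1 but 65.1 and 71.3 on those numbered 2, the order shown by the endothelial markers.

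Other receptors of class B were mostly dim. Of 13 genes, 12 had a probe set and only Adcyap1r1, the receptor of the neuropeptide PACAP, passed the filter. It read 208 and 536 in control and 98.0 and 422 in cKO cells, overlapping, with a log2 difference of -0.71 and a 95% limma interval of -2.41 to 0.99. These are values of the brightest of its 3 kept probe sets, of which 2 were lower in cKO. The mean over its kept probe sets was -0.23. Vipr2, a receptor for vasoactive intestinal peptide, did not pass, yet its groups were apart, at 73.6 and 82.2 in control and 27.8 and 47.6 in cKO cells. Pth1r, the parathyroid hormone receptor, read 32.9 and 35.2 against 41.6 and 51.4, all below the filter signal. The remaining 9 overlapped between the groups and lay below the filter signal on every array. For genes that missed the filter, no share without overlap is given for comparison.

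Genes that couple or traffic such receptors gave no call. Of 16, 15 had a probe set and all 15 passed, with 12 lower and 3 higher in cKO and a median log2 difference of -0.088. Of all genes tested, 57.3% were lower, and the median of these 15 became 0.0048 once arrays were centred on their medians. In 2 of 15 the arrays did not overlap (13.3%, against 20.6% of all genes tested). Ackr3, a scavenger receptor that also takes up adrenomedullin, read 2889 and 3188 in control and 2418 and 2325 in cKO cells, with an unadjusted limma p of 0.0625. Prkar1a, a regulatory subunit of protein kinase A, read 4342 and 4179 against 3862 and 3709. Arrb1, an arrestin, and Grk6, a receptor kinase, differed by -0.38 and -0.27 on the log2 scale, with overlap. Gnas, the stimulatory G protein, differed by -0.021, and Gprasp1, a sorting protein of G protein-coupled receptors, by 0.027. Rapgef3, a cAMP sensor, followed the replicate number, with 534 and 690 for number 1 but 40.8 and 20.2 for number 2.

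The other subunits of RNA polymerase III, the enzyme that Crcp belongs to, lay on both sides of 0. Of 17 subunit genes, 14 had a probe set and 13 passed, with 10 lower and 3 higher in cKO (median log2 difference -0.11), and 0 were called. For comparison, 57.3% of all genes tested were lower, and the list median was -0.023 once arrays were centred on their medians. Groups did not overlap in 5 of 13, or 38.5%, against 20.6% of all genes tested. Polr3d had 146 and 119 in control cells and 96.6 and 60.8 in cKO cells. Polr3gl and Polr1c were also lower without overlap (log2 differences -0.53 and -0.30), and Polr3b and Polr3k higher (0.22 and 0.16) on their brightest probe sets. Both Polr3b and Polr3k had 3 kept probe sets, of which 1 was lower in cKO. The smallest unadjusted limma p among them was 0.102, for Polr3d.

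**Figure D5:**
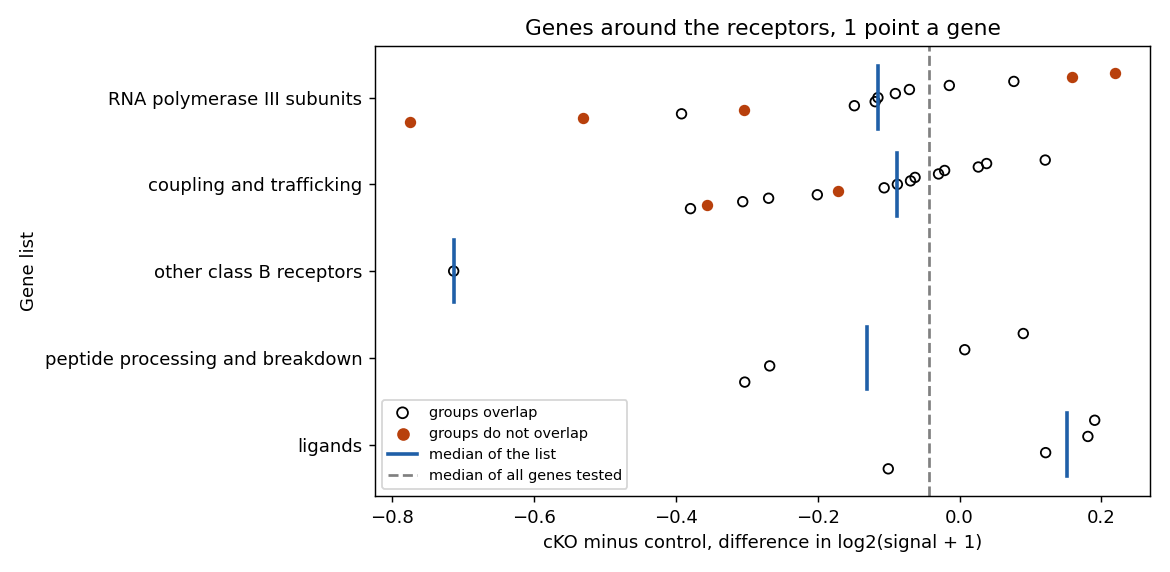
Difference in log2(signal + 1) between cKO and control cells (horizontal axis) for each gene that passed the filter in 5 lists of genes around the receptors; filled points are genes whose groups do not overlap, blue bars the list medians and the dashed line the median of all genes tested (-0.043). The list medians lie between -0.71, for the single class B receptor, and 0.15, for the ligands.

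Calcr was also set beside the other satellite cell markers, all of which passed the filter. Of 11, 10 were lower and 1 higher in cKO, with a median log2 difference of -0.14 and none called. For comparison, 57.3% of all genes tested were lower, with a median of -0.043. Pax7, the transcription factor that defines the lineage, read 2319 and 3647 in control and 2170 and 2434 in cKO cells. Myf5, a myogenic factor, read 2028 and 3002 against 1878 and 2843, and Vcam1, an adhesion molecule, 4006 and 4861 against 4270 and 4239. Groups did not overlap in 2 of 11, or 18.2%, near the 20.6% of all genes tested. These were Myod1, the commitment factor, and Sdc4, a surface proteoglycan, with log2 differences of -0.40 and -0.15. Not every marker kept its sign in both pairs of arrays. Cdh15 and Itga7 were higher in cKO between the arrays numbered 1 (0.54 and 0.44) and lower between those numbered 2 (-1.32 and -0.73). Pax7, Myf5 and Myod1 were lower in both pairs. The difference in Calcr was -1.11 on the same scale.

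Genes whose 4-array profile was most like that of a receptor gene were found by the root mean square difference between centred log2 profiles, over 10139 other genes. For Calcr these were Zfp365, a zinc finger gene, Emilin2, of the extracellular matrix, the kinase gene Cdc42bpg, the predicted gene Gm13262 and the chemokine gene Ccl2. Zfp365 was nearest, at 0.052, with 94.1 and 106 in control and 44.8 and 49.0 in cKO cells. It was the only gene within 0.1. Both cKO values of Zfp365 lay below the filter signal, as did those of Gm13262 (40.8 and 61.1). The control signals of Zfp365 and Gm13262 carried them over the filter, so no fold is given for either. Ccl2 read 1108 and 1185 against 559 and 508. The profile of Ramp2 was nearest to Dnmbp, Stk11, Fzd7, Ccdc112 and Gtf2e2, with 194 genes within 0.1, and Fzd7, a Wnt receptor, read 405 and 557 against 533 and 641. For Calcrl's brighter probe set the nearest were Pafah2, Parp11, Fank1, Dock9 and Angptl7 (14 genes within 0.1), and for the dimmer Rasa1, Oasl2, Speg, Klhl41 and Ppp1r13l (88 genes). The flatter profile of Crcp had 694 genes within 0.1; the nearest were Ap4s1, Tmcc1, Aldoa, Nup62 and Polr3f, itself a subunit of RNA polymerase III. Likeness over 4 arrays is a description and carries no test.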

How the data were processed

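Total RNA of 4 samples was labelled with biotin and hybridised to 1 array each, per the labels' protocols. The deposited values are linear signal intensities, 1 per probe set, made with MAS5 per the submitters' processing notes, which combines matched and mismatched probes. The target of any scaling was not stated in these sources. The median log2 difference over all probe sets tested was -0.056 as deposited and 0.037 with arrays centred on their median, which bears on small differences such as those of Calcrl and Crcp.

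Of 45101 probe sets, 34945 had 1 gene symbol in the platform annotation and 932 had several; genes were named only from the former. Values were analysed as log2(value + 1), which understates changes of dim probe sets. The filter kept the 22519 probe sets at or above the median mean log2 value, AFFX controls excepted. The comparison used limma 3.58.1 under R 4.3.3, with an intensity trend and no block, and a Benjamini-Hochberg threshold of 0.05. Residual degrees of freedom were 2 and prior ones 5.32, and the number of arrays limits the precision. Lists used the brightest kept probe set of a gene. By rule, all probe sets of the 6 genes were named, and genes of the 5 pathway lists without overlap or with the smallest p. The rule also took ligands and class B receptors that passed, up to 4 markers listed first in a marker list, and the 5 nearest profiles of each probe set. Gnas, Gprasp1, Rapgef3, Iapp, Adm2, Sdc4, Cdh15, Itga7, Gsn, Cd68, Lyz2, Fcer1g and Laptm5 are outside that rule and were named with their values known. The members and lists were chosen with earlier results of these data known. The fit was tested on simulated data. Alternatives were a pseudocount of 32, quantile normalization, arrays centred on their median, no filter, a filter at the 75th percentile, no trend, a replicate block, the mean over probe sets and leaving out each array.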

Additional observations from a re-analysis of the deposited data

How the results depend on the processing

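With 2 arrays a group, intervals of single genes were wide, and probe sets under the filter signal of 63.9 support no fold. Calcr stayed negative and Ramp2 positive in 11 of 11 alternatives each, and no probe set of the 6 genes passed in any of them; the adjusted limma p of Calcr ran from 0.704 to 0.99999. Calcrl's 1418489_a_at turned to 0.022 with arrays centred on their median, to 0.19 without control replicate 1 and to 0.045 without cKO replicate 1, and its range over left-out arrays was -0.33 to 0.19. The brighter 1425814_a_at ran from -0.62 to 0.27, the latter without control replicate 1. Crcp ran from -0.28 to 0.083, above 0 without control replicate 2 (0.052) and also when cKO replicate 2 was dropped (0.083). The causes were not tested.

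The count of probe sets called was 0 as reported, 163 at an unadjusted p under 0.05, and 123 by a 2-fold difference without overlap, with no test. Leaving out an array gave 0 to 5. The replicate number as a block gave 5; the labels do not say that a number marks shared mice or days, deviations of same-numbered arrays correlated at 0.43 over probe sets, and Calcr under the block had an adjusted limma p of 0.704. With an array left out, the median of the coupling list ran from -0.15 to 0.075, that of the processing list from -0.69 to 0.12 and that of the RNA polymerase III list from -0.37 to 0.12. That of the ligands fell below 0 without control replicate 1 (-0.20), and Adcyap1r1, the single class B receptor, turned to 0.33 without cKO replicate 1. A lone array was taken to vary as the opposite genotype does. The 75th percentile filter left no value for Calcrl's 1418489_a_at and Crcp.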
